A study of Caenorhabditis elegans with 2 samples.

Results

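The 10 genes described here code for the 5 Wnt ligands of Caenorhabditis elegans (egl-20, lin-44, cwn-1, cwn-2 and mom-2), its 4 beta-catenins (bar-1, wrm-1, sys-1 and hmp-2) and its TCF/LEF factor (pop-1). They were taken by name from 19973 protein-coding nuclear genes in the Ensembl annotation of WBcel235 (ce11), and all 10 names matched. The data are chromatin immunoprecipitation sequencing of NFYA-1, an A subunit of the CCAAT-binding factor NF-Y, in whole hermaphrodites at the third larval stage (L3). All animals came from 1 line, OP404, with the genotype unc-119(tm4063) III; wgIs404; its transgene expresses NFYA-1 with GFP and FLAG at the C-terminus, and chromatin was pulled down with an antibody to GFP after sonication. The 2 libraries are labelled as biological replicates of this single group, so no groups of animals can be compared and no p-value is given. The labels give the age as unknown, and a tagged transgenic line profiled in whole animals does not show which cells hold the protein on a given site.

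Wnt ligands are secreted lipid-modified proteins that bind Frizzled, Ror and Ryk receptors, and beta-catenins carry the signal on to POP-1, the TCF/LEF factor that sits on target genes. In this worm the beta-catenins have separate jobs: BAR-1 acts in the canonical pathway, SYS-1 is a coactivator of POP-1, WRM-1 works with the kinase LIT-1 to export POP-1 from the nucleus, and HMP-2 links cadherin to alpha-catenin at cell junctions. NF-Y is a heterotrimer known to bind CCAAT boxes in promoters. bar-1, wrm-1, sys-1 and pop-1 are called nuclear effectors here, and hmp-2 is given apart.

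Each deposited region has a summit, the position that the authors' caller marked as its highest point. The sequences below run 50 bp to either side of a summit, 5′ to 3′ on the plus strand of ce11, read from the RefSeq copy of the genome. Capitals mark CCAAT or its reverse complement ATTGG, and GAGAGA or its reverse complement TCTCTC. The first set holds member genes. It shows the better-ranked of the ligand-window IDR summits (cwn-2), the regions of cwn-1 and mom-2 seen in replicate 2 alone, and the best-ranked pooled relaxed regions of wrm-1 and bar-1.
cwn-2, chrIV:10062888-10062988: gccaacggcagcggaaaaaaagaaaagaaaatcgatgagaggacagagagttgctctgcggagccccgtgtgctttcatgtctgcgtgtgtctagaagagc
cwn-1, chrII:134025-134125: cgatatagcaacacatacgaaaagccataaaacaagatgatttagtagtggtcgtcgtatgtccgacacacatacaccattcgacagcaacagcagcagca
mom-2, chrV:8356695-8356795: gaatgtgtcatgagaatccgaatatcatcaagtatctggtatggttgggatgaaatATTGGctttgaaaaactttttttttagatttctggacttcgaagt
wrm-1, chrIII:5718571-5718671: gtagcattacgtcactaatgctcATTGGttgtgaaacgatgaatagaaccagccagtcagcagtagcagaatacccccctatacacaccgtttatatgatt
bar-1, chrX:7172162-7172262: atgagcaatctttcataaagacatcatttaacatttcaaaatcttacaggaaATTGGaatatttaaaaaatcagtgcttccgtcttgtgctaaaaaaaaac
The first 2 sequences, from cwn-2 and cwn-1, hold neither CCAAT nor GAGAGA in either direction. The other three hold a single ATTGG each, 8 bp from the summit in mom-2, 25 bp in wrm-1 and 4 bp in bar-1.

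The second set comes from other Wnt pathway genes. It holds the 8 best-ranked of the 68 IDR summits in the windows of 40 such genes, whether or not they hold a box. They stand in order of rank, from 49 to 286. In the first set only cwn-2 is an IDR summit, and the rest are relaxed regions of ranks 7004 to 28466 in their own lists. The sets thus differ in stringency as well as in genes and cannot be compared for boxes.
cbp-1, chrIII:9765588-9765688: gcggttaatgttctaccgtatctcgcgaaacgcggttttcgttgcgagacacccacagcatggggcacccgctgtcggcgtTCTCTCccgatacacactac
lin-39, chrIII:7534871-7534971: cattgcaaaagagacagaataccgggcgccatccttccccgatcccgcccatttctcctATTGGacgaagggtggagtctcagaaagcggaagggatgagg
egl-18, chrIV:1904391-1904491: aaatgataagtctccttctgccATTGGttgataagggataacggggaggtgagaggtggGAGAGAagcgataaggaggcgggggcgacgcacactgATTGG
mig-5, chrII:8185155-8185255: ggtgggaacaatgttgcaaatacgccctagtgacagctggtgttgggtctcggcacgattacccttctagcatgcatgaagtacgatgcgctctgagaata
mom-1, chrX:6296485-6296585: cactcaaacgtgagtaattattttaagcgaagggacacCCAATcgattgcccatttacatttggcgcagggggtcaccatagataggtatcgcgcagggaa
mab-5, chrIII:7778654-7778754: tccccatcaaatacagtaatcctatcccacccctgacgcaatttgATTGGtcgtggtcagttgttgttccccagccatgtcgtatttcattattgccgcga
mig-14, chrII:13741597-13741697: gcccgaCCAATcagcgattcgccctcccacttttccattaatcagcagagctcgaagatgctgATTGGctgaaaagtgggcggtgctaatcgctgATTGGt
egl-5, chrIII:7812341-7812441: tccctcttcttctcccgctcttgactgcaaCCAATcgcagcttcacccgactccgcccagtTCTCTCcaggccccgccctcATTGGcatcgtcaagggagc
The cbp-1 and mig-5 summits hold no CCAAT. The mig-14 summit holds 3, those of egl-18 and egl-5 hold 2 each, and those of lin-39, mom-1 and mab-5 hold 1 each. Over all 68 such summits 21 (30.9%) hold CCAAT, beside 27.6% of all IDR summits of the series, so a box at most of these 8 does not describe the pathway's summits in general.

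Across the series, the authors kept 6932 peaks as reproducible between the replicates by their irreproducible discovery rate (IDR), and a relaxed list of 30000 regions was deposited for each replicate and for both pooled. A rank below is the place of a region in its own list by the authors' signal, with 1 the strongest, and signals are not compared between lists. Relaxed lists hold peaks together with background, by the authors' own description. CCAAT stood within 50 bp of 27.6% of all IDR summits (1916 of 6932), against 1354 and 1318 of the windows 300 bp to the lower and higher side. The longer form CCAATC stood at 972 of the IDR summits against 250 in each flank, and GAGAGA at 28.4% of IDR summits against 5.94% and 5.31% in the flanks. CCAATC contains CCAAT, and all 3 motifs were sought on both strands.

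Of the 10 genes, 5 had an IDR summit between 5 kb upstream of the gene start and the gene end: lin-44, cwn-2, sys-1, pop-1 and hmp-2. Over all protein-coding genes the share with such a summit was 38.7%, so for 10 genes the count of 5 is near the background. These genes held 6 IDR summits in 89.2 kb of window, or 6.73 per 100 kb, against 7.4 per 100 kb over the windows of all coding genes. In the promoter window, from 500 bp upstream to 200 bp downstream of the start, 3 genes (lin-44, sys-1 and pop-1) had a summit, against a share of 15.6% over all genes. The same 3 genes were the ones whose own start was the nearest coding start to one of their IDR summits, and over all genes this share was 22.1%. The summits of cwn-2 and hmp-2, and the farther summit of sys-1, lay beside the start of another gene.

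**Figure D1:**
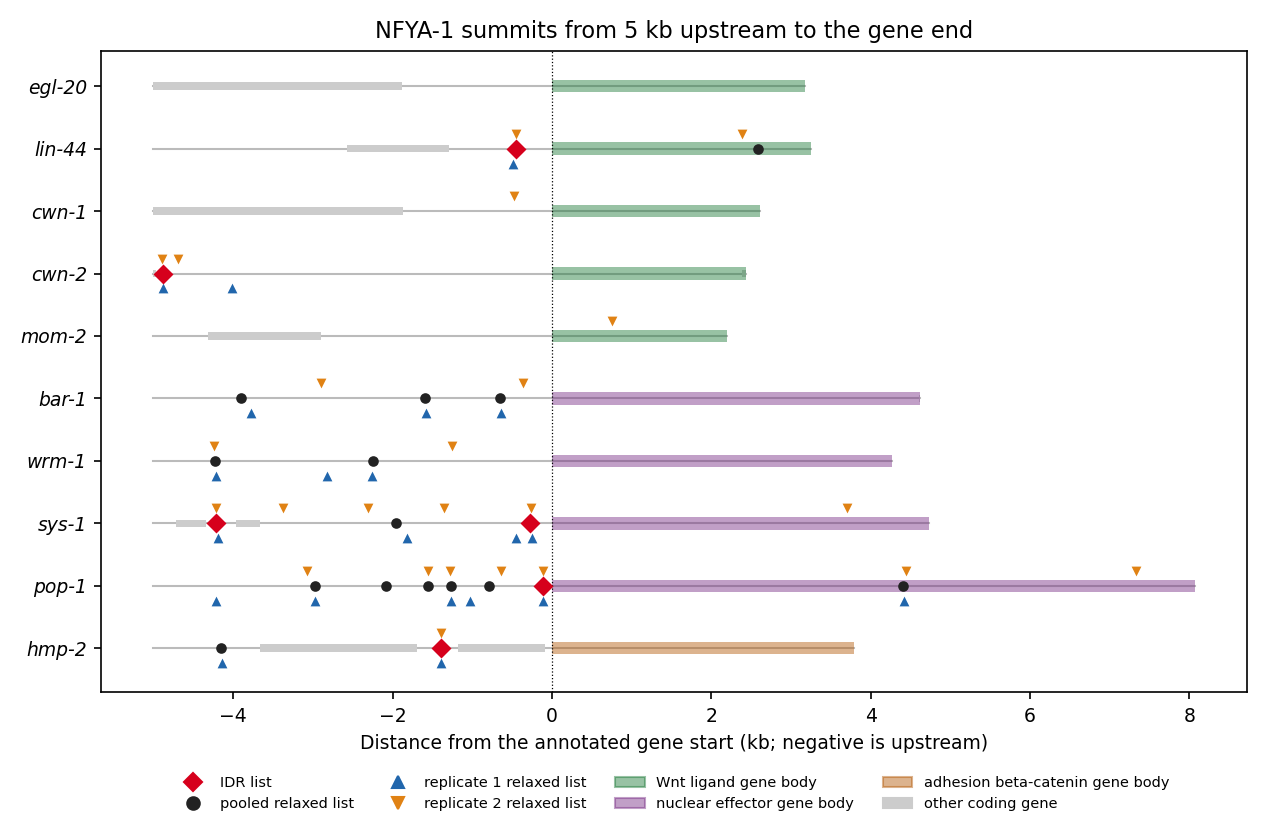
Positions of NFYA-1 summits in each gene's window, in kb from the annotated start with upstream to the left; rows run from the 5 ligands through the 4 nuclear effectors to hmp-2, and symbols give the list a summit came from. The 6 IDR summits (diamonds) fall at 5 genes, egl-20 has no symbol, and the pop-1 row carries the most pooled relaxed summits, 7.

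The ligand genes are taken first. lin-44 codes for the ligand of the tail that orients asymmetric cell divisions there. The gene (WBGene00003029, chromosome I, 4126056 to 4129310, plus strand) had its IDR summit at 4125611, in intergenic sequence 445 bp upstream of the start. The signal was 58.8 and the rank 6429 of 6932, so this was a summit near the bottom of the list. In the relaxed lists it ranked 7098 in replicate 1 (signal 32.1) and 6235 in replicate 2 (signal 28.0), with the replicate summits 45 bp apart. It was the only IDR summit of the 10 genes with CCAAT within 50 bp. There were 2 copies, both in the form CCAATC, and the nearer lay 4 bp from the summit. A weak pooled region of rank 26041 lay in an intron of lin-44, 2583 bp downstream of the start, where replicate 2 alone had a region of rank 28357.

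cwn-2, a ligand with roles in neuronal migration and nerve ring placement, had the stronger of the 2 ligand-window summits. The gene (WBGene00000858) runs from 10067816 to 10070251 on the plus strand of chromosome IV. Its IDR region, chrIV:10062760-10063115, had a signal of 169.1 and rank 2347. The region ranked 2602 in replicate 1 (signal 90.7) and 2374 in replicate 2 (signal 73.3), and the replicate summits were 21 bp apart. The summit lay 4878 bp upstream of cwn-2, near the outer edge of the window, and only 89 bp upstream of ipla-7 on the opposite strand. No CCAAT lay within 100 bp of it. Between that summit and cwn-2 lay a weak region of replicate 1 alone, of rank 24399 (4019 bp upstream). Replicate 2 had a further region of rank 10643, with its summit 4696 bp upstream. That region overlapped the IDR region, so it does not stand apart from it.

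The other three ligand genes had no IDR summit and no pooled relaxed summit. For egl-20 (WBGene00001188, chromosome IV, 9812357 to 9815532, minus strand), the posterior ligand that steers Q neuroblast migration, no list held a summit in its 8.18 kb window. Over all genes 33.0% had no summit in any of the 4 lists, so an empty window is common. The nearest IDR summit to egl-20 lay 11765 bp downstream of its start, at rank 4355 beside fat-3. cwn-1 (WBGene00000857, chromosome II, 130983 to 133598, minus strand), a posterior ligand that overlaps with egl-20 in function, had a region in replicate 2 only. Its summit at 134075 was 477 bp upstream of cwn-1, inside the noncoding gene K10B4.8, with rank 7004 and signal 24.3. Its −log10 q value of 4.26 was at the ceiling of that list, as it was for 9134 of the 30000 regions there. The nearest summit of replicate 1 was 7300 bp away. The nearest pooled summit was 12746 bp away and the nearest IDR summit 22040 bp away.

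mom-2 (WBGene00003395, chromosome V, 8355988 to 8358185, plus strand), the ligand that induces endoderm in the early embryo, had a region only in replicate 2 as well. Its summit was in a mom-2 intron 757 bp downstream of the start, at rank 28466 with signal 4.2, which is close to the end of the 30000 regions. The nearest IDR summit, of rank 2611, lay past the gene end, 3325 bp downstream of the mom-2 start and 150 bp upstream of mpdu-1. The regions at mom-2 and cwn-1 thus differ in standing, since the cwn-1 region ranked near the length of the IDR list and the mom-2 region near the floor.

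Among the nuclear effectors, sys-1 had the highest-ranked summits. The gene (WBGene00006379, chromosome I, 9980063 to 9984794, minus strand) had an IDR summit at 9985064, 270 bp upstream of its own start in intergenic sequence. That summit had a signal of 206.8 and rank 1782, the best rank of any summit nearest to a start of the 10 genes. It ranked 2173 in replicate 1 (signal 105.6) and 1547 in replicate 2 (signal 99.0), 25 bp apart. The other sys-1 summit, at 9989008, had a signal of 245.4 and rank 1352, with rank 1375 in replicate 1 and 1468 in replicate 2. It lay 4214 bp upstream of sys-1 but 124 bp upstream of his-68, between the histone genes his-67 and his-68. Neither held CCAAT within 100 bp, and both held GAGAGA, the only IDR summits among the 6 to do so. A second replicate 1 region, of rank 16317, overlapped the IDR region nearer to sys-1. Its summit lay 456 bp upstream, with a CCAATC within 50 bp. The remaining relaxed regions in the sys-1 window ranked from 16322 to 29379. Near the his-68 summit 4 of the 82 20-mers occur more than once in the genome, in at most 4 copies, and their part in the signal was not tested.

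pop-1 (WBGene00004077, chromosome I, 2822243 to 2830311, minus strand) had a low-ranked IDR summit at its start and the largest number of relaxed regions. The IDR summit lay 106 bp upstream, inside the noncoding gene W10C8.14, with a signal of 59.5 and rank 6363. It ranked 5959 in replicate 1 (signal 39.5) and 8081 in replicate 2 (signal 20.7), with summits 9 bp apart. The nearest CCAAT was 94 bp away, outside the 50 bp window. Its window held 7 pooled relaxed summits, and 80.5% of coding genes had fewer per kb.

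Several of the pop-1 relaxed regions recurred in both replicates. The pooled summit 2975 bp upstream had rank 9755, with rank 8462 in replicate 1 and 7567 in replicate 2. The pooled summit 1270 bp upstream had rank 9801, with 12146 in replicate 1 and 7802 in replicate 2. A summit in a pop-1 intron, 4410 bp downstream of the start, had rank 11267, with 13326 and 10532 in replicates 1 and 2, and a CCAATC with its CCAAT 1 bp from the summit. These 3 were the best-ranked of the 6 pop-1 regions that did not reach the IDR list. Of the 6, 5 held CCAAT within 50 bp, although the IDR summit did not.

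bar-1 and wrm-1 had relaxed regions only. bar-1 (WBGene00000238, chromosome X, 7166005 to 7170625, minus strand), the canonical beta-catenin of vulval and neuroblast fate, had 3 pooled summits at ranks 17767, 24205 and 29076. The region of rank 17767, 1587 bp upstream, held the CCAAT box shown above and ranked 22288 in replicate 1, with no region of replicate 2 over it. The region of rank 24205, 647 bp upstream, overlapped regions of both replicates, with rank 22794 in replicate 1 and 16003 in replicate 2, but their summits were 273 bp apart. Replicate 2 alone had a region of rank 12841, with its summit 2893 bp upstream. The nearest IDR summit lay 11152 bp upstream of bar-1, at rank 2448.

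wrm-1 (WBGene00006943, chromosome III, 5722850 to 5727115, plus strand) had 2 pooled summits. The better, at rank 11358 and 4229 bp upstream, ranked 20250 in replicate 1 and 11759 in replicate 2, with summits 17 bp apart and the CCAAT box shown above. The start nearest to it was that of arf-1, 3735 bp away. The other, 2240 bp upstream, had rank 20392, with rank 15121 in replicate 1 and none in replicate 2. Replicate 1 alone had a region of rank 14382, 2821 bp upstream. Replicate 2 alone had one of rank 16082, 1251 bp upstream, with CCAAT within 50 bp. The promoter window of wrm-1 held no CCAAT, although its full window held 26. The nearest IDR summit was 7143 bp upstream, at rank 699, and lay 821 bp downstream of the start of arf-1.

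hmp-2 (WBGene00001979, chromosome I, 14738882 to 14742671, plus strand), the adhesion beta-catenin, had the best-ranked summit of any of the 10 windows. At 14737486 the signal was 251.5 and the rank 1296, with rank 1403 in replicate 1 (signal 139.6) and 1286 in replicate 2 (signal 109.8), 7 bp apart. It was intergenic, 1396 bp upstream of hmp-2 and 216 bp upstream of K05C4.7, a gene on the same strand that lies between the summit and hmp-2. It held no CCAAT within 100 bp.

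**Figure D2:**
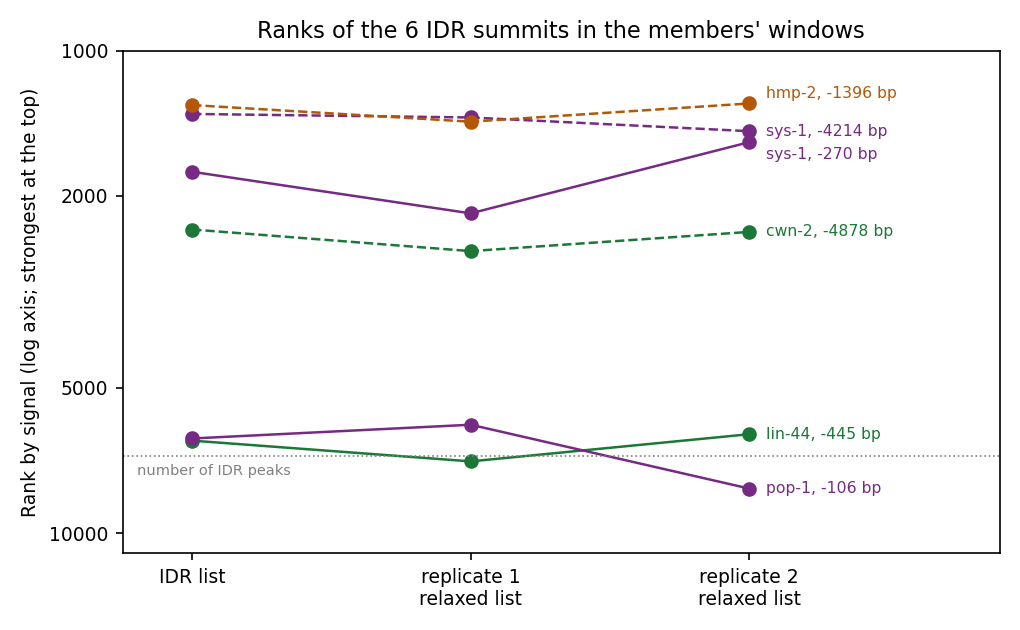
Rank by signal of the 6 IDR summits in the IDR list and in each replicate's relaxed list, on a log axis with the strongest at the top; solid lines are summits nearest to the named gene's own start and dashed lines summits nearest to another gene. Of the 6, 4 stay between ranks 1286 and 2602 in all 3 lists, while lin-44 and pop-1 lie near the length of the IDR list, 6932, and cross it in 1 replicate each.

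All 6 summits were matched by a region of each replicate, both by overlap and with a replicate summit within 100 bp. The strongest of the 6 signals exceeded the weakest 4.28-fold. 4 of the 6 ranked among the 3466 strongest IDR peaks, and their median rank was 2064.5. lin-44 fell outside the 6932 strongest regions of replicate 1, and pop-1 outside those of replicate 2, so each of these 2 stood lower in 1 replicate. By feature, 5 summits were intergenic and 1 was in a noncoding gene. Their G and C content ran from 47.5% to 53.5%, against a median of 46.5% over all IDR summits.

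Ligand and nuclear effector windows held few IDR summits each, and most of the relaxed regions lay in the effector windows. Of the ligand genes 2 of 5 had an IDR summit, against 2 of 4 nuclear effector genes, with 38.7% for all genes. The ligand windows held 2 IDR summits in 38.7 kb (5.17 per 100 kb) and the effector windows 3 in 41.7 kb (7.2 per 100 kb). A pooled relaxed summit was present in 2 of 5 ligand genes and in 4 of 4 nuclear effector genes, and 7 of the 10 genes had one, against 58.8% of all coding genes. The ligand windows held 3 pooled summits, or 7.75 per 100 kb, and the effector windows 15, or 36.0 per 100 kb, with 28.4 per 100 kb over all coding genes. Of the 15 in effector windows, 7 were in the pop-1 window.

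Both replicates gave the ligands the lower density. In replicate 1 the ligand windows held 3 summits (7.75 per 100 kb) and the effector windows 16 (38.4 per 100 kb), with 28.5 over all coding genes. In replicate 2 the counts were 6 (15.5 per 100 kb) in ligand windows and 17 (40.8 per 100 kb) in effector windows, with 28.7 over all genes. The replicates profile the same 9 genes, so they repeat the measurement and add no genes. A gene without pooled summits is common, since the 3 ligand windows with no pooled summit share a pooled density of 0 with 41.2% of all coding genes, and with 5 and 4 genes the difference stays a description.

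The chromosomes on which the genes lie differ in density too. Relaxed pooled summits ran from 21.0 per 100 kb on chromosome V to 39.1 on chromosome III. The ligand windows held 3 pooled summits, against 10.4 for the same length at the mean density of their own chromosomes. The effector windows held 15, against 14.4 by the same sum. For IDR summits the ligand windows held 2 against 2.5, and the effector windows 3 against 3.5. Chromosome I holds 4 of the 10 genes and 5 of the 6 IDR summits. For coding genes on that chromosome, 51.3% of windows held an IDR summit, beside 38.7% genome-wide. Its IDR density was 8.44 summits per 100 kb, beside 6.91 over all chromosomes.

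**Figure D3:**
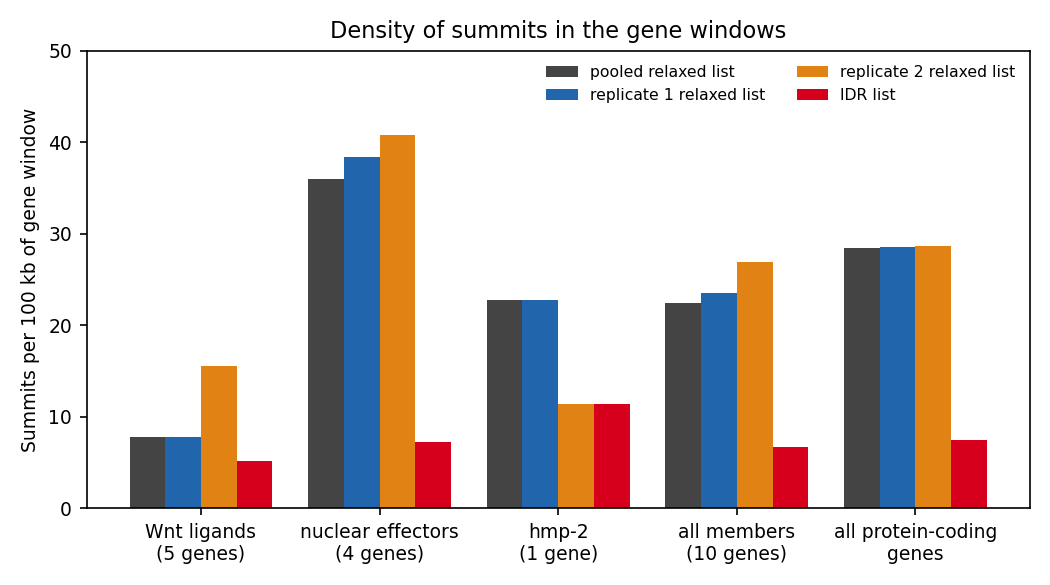
Summits per 100 kb of gene window in ligands, nuclear effectors, hmp-2 and all 10 genes together, beside all protein-coding genes, for each of the 4 lists. In the pooled and replicate lists the ligands (7.75 to 15.5 per 100 kb) stand below the nuclear effectors (36.0 to 40.8), while the IDR densities of 5.17 and 7.2 per 100 kb rest on 2 and 3 summits.

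CCAAT boxes themselves were about as frequent in both kinds of window. The ligand windows held 97 (2.51 per kb), the effector windows 109 (2.61 per kb), and the windows of all coding genes 2.45 per kb. Of the 221 boxes in the windows of the 10 genes, 2 lay within 50 bp of an IDR summit, both at lin-44, and 9 within 50 bp of a pooled summit. Among the pooled summits, 1 of 3 in ligand windows and 7 of 15 in effector windows had a box, against 22.7% of all 30000. In windows 300 bp to the lower and higher side of the 30000 the share was 19.6% and 19.7%. Most of the 7 lay in the pop-1 window, 2 of them in regions that overlap each other, so the count describes few loci. Only 1 of the 6 IDR summits did, against 27.6% of all IDR summits, and widening to 100 bp brought in pop-1.

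The pooled regions that did not reach the IDR list were 14, with ranks from 9755 to 29076. Of these, 12 lay in effector windows, 1 in a ligand window and 1 at hmp-2. Of all 20 pooled regions, 14 overlapped regions of both replicates, 4 of replicate 1 only, 1 of replicate 2 only and 1 of neither. An overlap of 1 bp was enough, so the 14 are not all recurrences of the same site. For pooled regions at sys-1, pop-1 and bar-1 the replicate summits lay 482, 390 and 273 bp apart. The pop-1 region of rank 20121 had the same strongest replicate regions as its neighbour of rank 9801. By place, 15 were intergenic, 3 in noncoding genes, 2 in introns and 0 in coding exons. The 14 had a median G and C content of 39.1%, and 7 of them held CCAAT.

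The rest of the pathway was counted over 40 genes in 8 lists grouped loosely by role. In these lists sfrp-1 was counted with the secretion genes and vang-1 with the receptors. An IDR summit lay in the window of 5 of the 10 ligand, beta-catenin and pop-1 genes, against 32 of these 40 and 38.7% of all genes. In the promoter window the count was 3 of the 10 genes, against 12 of 40 and 15.6% of all genes. The own start was nearest in 3 of the 10 genes, against 24 of 40 and 22.1% of all genes. The median window was 8.52 kb for the 10 genes, against 10.16 kb for the 40 and 7.03 kb over all coding genes. Per 100 kb of window, the 40 genes held 13.2 IDR summits, against 6.73 for the 10 genes and 7.4 over all coding genes. The part of window length in the counts of genes was not tested. A pooled relaxed summit lay in 37 of the 40.

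**Figure D4:**
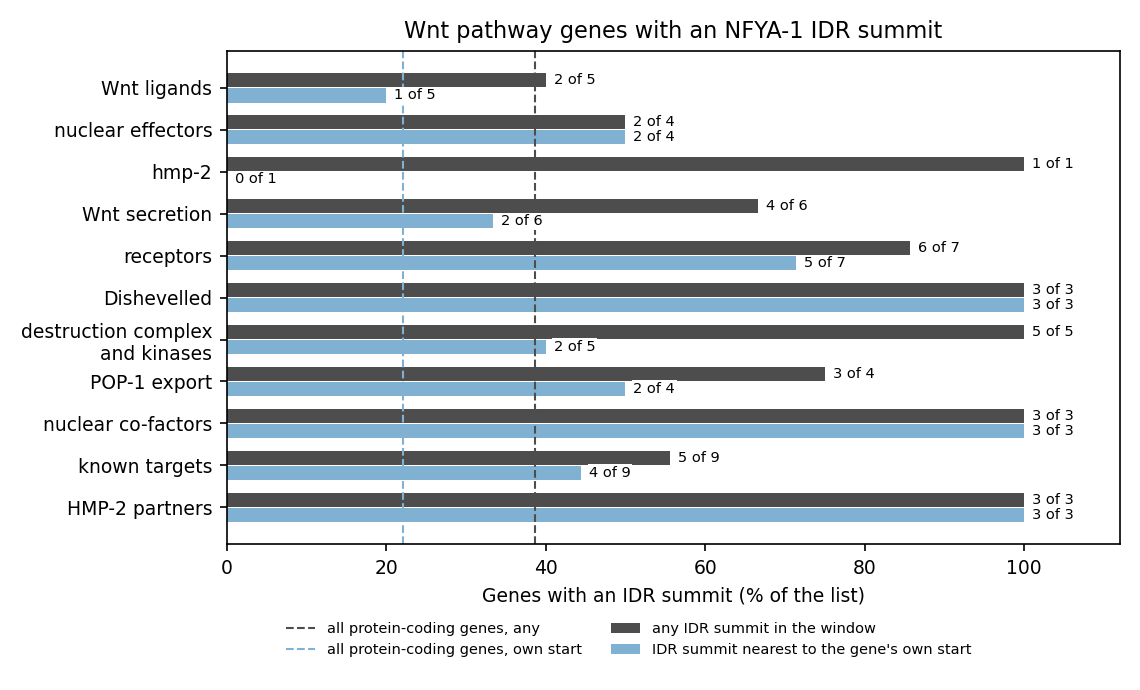
Percent of genes in each role with any IDR summit in the gene window (dark bars) and with one nearest to the gene's own start (light bars), with dashed lines at the shares over all coding genes (38.7% and 22.1%). The ligands, nuclear effectors and hmp-2 have 2 of 5, 2 of 4 and 1 of 1 by the first count and 1 of 5, 2 of 4 and 0 of 1 by the second, and in the 8 lists below them, of 3 to 9 genes, each bar passes the line of its own kind. The bars count genes, not summits per length. The HMP-2 partners, with a median window of 34.01 kb, held 4.58 IDR summits per 100 kb, below the 7.4 over all coding genes. The other lists held 10.7 to 19.5.

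By role, a few summits of the genes upstream of the beta-catenins were strong, but their lists as a whole were not. The median rank was 3555 for secretion summits, 4479 for receptors and 4023 for Dishevelled, against 3466.5 over all IDR peaks. Of the secretion genes 4 of 6 had an IDR summit in the window. mig-14, the Wntless homologue that carries Wnts to the cell surface, had a summit 91 bp upstream at rank 277 (signal 574.5), with ranks 297 and 247 in replicates 1 and 2. mom-1, the Porcupine homologue that lipid-modifies Wnts, had a summit in its intron at rank 219, with ranks 240 and 222. It lay 3423 bp downstream of the mom-1 start and almost as far, 3407 bp, from the start of cest-16, the nearest. Of the receptors 6 of 7 had one, led by the Ror receptor cam-1 at rank 1487 and the Frizzled mom-5 at rank 3128. The mom-5 summit was in a 3′ UTR, with the start of tsp-7 nearest, 3609 bp away. All 3 Dishevelled genes had one, and mig-5 had a summit 182 bp upstream at rank 94 (signal 863.9, ranks 89 and 103 in replicates 1 and 2) with no CCAAT within 50 bp. The Dishevelled gene dsh-2 followed at rank 2503, 233 bp upstream.

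In the destruction complex, 5 of 5 had a summit in the window but 0 in the promoter window. The best was in the gsk-3 window at rank 655, 3244 bp upstream and in a coding exon of Y18D10A.4, followed by the casein kinase gene kin-19 at rank 1128. For POP-1 export 3 of 4 had one, with lit-1, the Nemo-like kinase, at rank 1170 in an intron and the 14-3-3 gene par-5 at rank 1498. The par-5 summit lay 152 bp upstream of par-5, inside its promoter window, and 130 bp upstream of M117.3, the nearest start. All 3 nuclear co-factor genes had one. The acetyltransferase gene cbp-1 had the best rank of all lists, 49 (signal 1078.6), 871 bp upstream, with ranks 60 and 36 in replicates 1 and 2. unc-37, the Groucho corepressor, had rank 513, 295 bp upstream.

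Among genes known as Wnt or POP-1 targets, 5 of 9 had an IDR summit, beside 5 of the 10 ligand, beta-catenin and pop-1 genes. The CCAAT box stood at 1 of the 6 summits of the 10 genes, against 10 of the 13 target summits and 27.6% of all IDR summits. lin-39, the Hox gene of the mid-body, had a summit at rank 71 in an intron 1711 bp downstream of its start (signal 958.6, ranks 69 and 60 in replicates 1 and 2). egl-18, a GATA factor of the seam lineage, had one at rank 80 in an intron 2119 bp downstream (signal 901.9, ranks 92 and 75). The Hox genes mab-5 and egl-5, named here after their values were seen, reached ranks 274 and 286. The mab-5 summit of rank 274 was in an intron, and the nearest start was that of bath-15, 2671 bp away. Another mab-5 summit, of rank 402, lay 1049 bp upstream with the mab-5 start nearest and 2 CCAAT boxes within 50 bp. These 4 genes hold 12 of the 13 target summits, so the count describes few loci, and 3 of them lie in 1 Hox cluster. The partners of HMP-2 all had a summit, the cadherin gene hmr-1 at rank 1208, in an intron 38815 bp downstream of its start and with the start of Y52B11A.11 nearest, and the alpha-catenin gene hmp-1 at rank 4085. Their windows were long, with a median of 34.01 kb, and held 4.58 IDR summits per 100 kb, below the 7.4 over all coding genes.

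**Figure D5:**
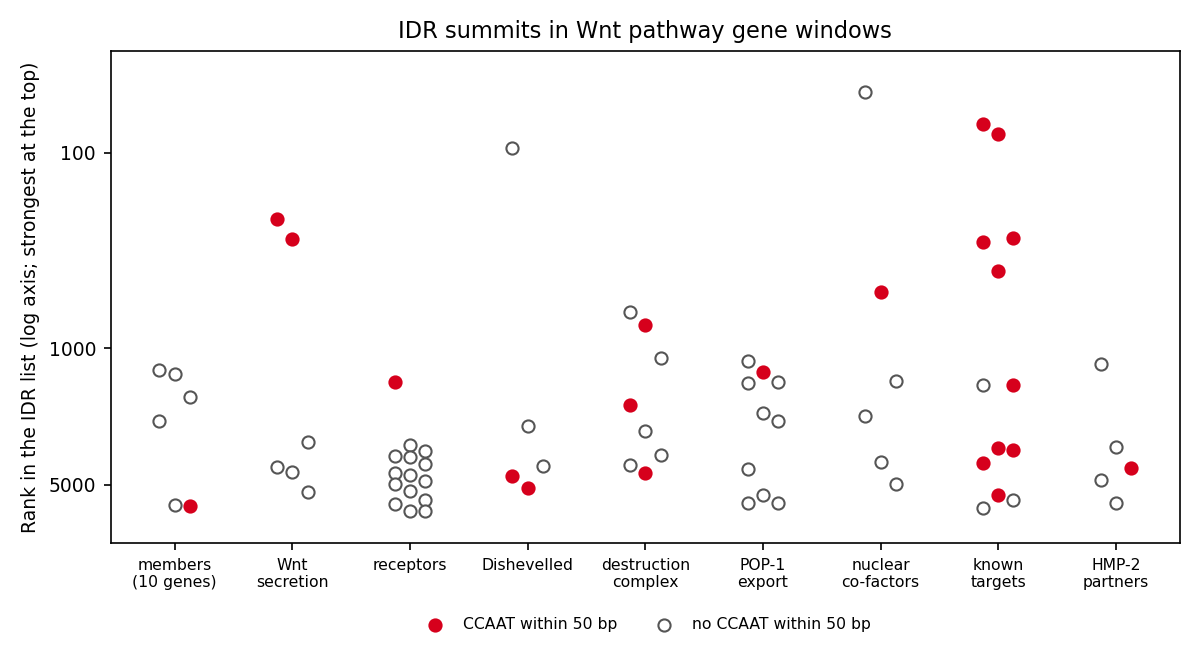
Rank in the IDR list (log axis, strongest at the top) of each IDR summit in the windows of the 10 genes and of the 8 wider lists, filled where CCAAT lies within 50 bp. The 10 genes' summits start at rank 1296. The lists of secretion, Dishevelled, destruction complex, co-factor and target genes each hold a summit at rank 655 or better. Those of POP-1 export, HMP-2 partner and receptor genes start at ranks 1170, 1208 and 1487. The 8 lists hold from 5 to 15 summits each, so their best ranks come from unlike numbers of summits. Of the 13 target summits 10 are filled.

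The 6 IDR summits of the 10 genes had a median rank of 2064.5, against 3435.5 for the 68 distinct summits of the wider lists, of which 34 ranked among the 3466 strongest. Of the 6, the summits nearest to their own gene's start ranked 1782 (sys-1), 6363 (pop-1) and 6429 (lin-44). The rest, at ranks 1296, 1352 and 2347, lay nearest to starts of other genes, so the median does not describe summits at the 10 genes' own starts. The ranks of the 68 were not divided in this way. CCAAT stood at 21 of the 68 (30.9%), beside 27.6% over all IDR summits. The 8 genes with no IDR summit in the window were sfrp-1, vps-26, cfz-2, tap-1, ceh-22, elt-6, end-1 and psa-3.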

How the data were processed

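NFYA-1 binding was measured in 2 libraries of whole L3 animals, per the labels biological replicates of 1 group. The deposited narrowPeak lists are on ce11 and on an older build, ce10, which was not used here. Per the deposited file descriptions, a relaxed list was called for each replicate and for both pooled against a control, and the IDR list was derived from these 3. Which aligner and peak caller made the lists is not given in the sources used here; depth is unknown from peak lists and no counting interval is given. Each deposited region carries a signal value in the authors' own scale, used to rank regions within a list. The deposited −log10 q value reaches a ceiling of 4.17 in the pooled and replicate 1 lists and 4.26 in replicate 2, and all member IDR summits are at it. The ceiling is shared by 7453 pooled, 7375 replicate 1 and 9134 replicate 2 regions, so it does not single out strong ones. The deposited summit offset was added to the region start, and positions are printed 1-based.

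Genes were taken from Ensembl release 115. A summit belonged to a gene when it lay from 5 kb upstream of the annotated start to the gene end. Features were assigned in the order coding exon, UTR, intron, noncoding gene and intergenic. Both strands were searched for motifs within 50 bp of each summit, in flanks 300 bp away and in the windows. A region was matched in a replicate when it overlapped by at least 1 bp. The 10 genes, the 8 pathway lists and the counts were chosen with earlier results of these data known. In each pathway list the text names the 2 bound genes with the best-ranked summit, and beside a summit the gene with the nearest start. No chance test was made, since a list of genes chosen this way and 1 group allow only description. Alternatives varied the window, the stringency, the motif and its distance, the match and the replicates used. Scripts ran in Python 3.11.15 with numpy 2.4.6, pandas 2.3.3 and matplotlib 3.10.9, and the counting was tested on simulated data.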

Additional observations from a re-analysis of the deposited data

How the results depend on the processing

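Of 54 recomputed values, 35 stayed within 1.5 times the reported count and 19 moved further. The 6 IDR summits, 5 genes with one and 2 ligand genes with one became 3, 3 and 1 with an upstream limit of 1 kb, 3, 3 and 1 in the promoter window, and 3, 3 and 1 when only summits nearest to the gene's own start counted, an alternative chosen after seeing the data. With a limit of 2 kb the ligand genes were 1. In the promoter window the 32 wider pathway genes were 12. Among the 3466 strongest IDR peaks, 3 genes, 1 ligand gene and 1 nuclear effector gene had a summit, and 0 of the summits held CCAAT. Within 100 bp, 2 summits held CCAAT in place of 1. Leaving out each replicate in turn (the 6932 strongest regions of the other) gave 1 to 2 ligand genes, 1 to 2 nuclear effector genes and 0 to 1 summits with CCAAT. Without replicate 1 the effector genes were 1, since pop-1 dropped out. Without replicate 2 the ligand genes were 1 and the CCAAT summits 0, since lin-44 dropped out. No paired analysis was possible because there is a single group of 2 libraries.

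The counts are of 10 genes and 6 summits, so a change of 1 summit moves most of them. Relaxed lists include background by design. The depth of the libraries is unknown from peak lists, and libraries without the tag or of other factors were not analysed here. Peak lists do not show expression, and whole animals do not show cell types. A gene named by the nearest start is a position, not a regulated gene.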
